A study of Oryctolagus cuniculus with 20 samples.

Results

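The interleukin 1 family members covered here are the ligands IL1A and IL1B, the receptor antagonist IL1RN and the related cytokine IL18. They were found as every array probe whose gene name or description in the scanner output gives 1 of these 4 genes. The literal symbols found IL1A and IL18, while the array names IL1B as IL1-BETA and IL1RN as IL1RA, and these were matched through their RefSeq accessions. They are 4 of the 885 genes that could be named on the array. In all, 17 of 43603 probes were found, 4 for IL1A, 3 for IL1B, 3 for IL1RN and 7 for IL18. Of these, 13 were bright enough to be tested, among 26905 tested probes of the whole array. A gene is represented below by its tested probe of the highest mean, a choice that the measured levels made.

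IL1A and IL1B are proinflammatory cytokines that bind the same signalling receptor. IL1RN encodes a protein that occupies that receptor without starting a signal, so the balance of agonist and antagonist sets how strongly a tissue responds. IL18 resembles IL1B in that it is made as an inactive precursor which caspase 1 can cut, and it is known for inducing interferon gamma in lymphocytes. In joints, interleukin 1 is known for driving chondrocytes to make matrix-degrading enzymes.

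RNA came from the condylar cartilage of the temporomandibular joint, the cover of the jaw's articular head, in male rabbits aged 6 months. In the operated groups the left joint had been put into internal derangement, a displaced joint disc, and the tissue was taken 1, 2, 4 or 8 weeks later. Control rabbits had no treatment, so they were not sham-operated and carry no time. Each of the 5 groups held 4 arrays, 20 in all, and the design text assigns the groups separate rabbits, although nothing ties an array to an animal.

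Levels are log2 of the deposited intensity minus the 75th percentile of the array, so 0 is that percentile. Arrays differed in brightness, with that percentile between 174.1 and 642.9 intensity units and 49.1% to 66.4% of spots well above background. Replicate 4 of the 1 week group was lowest in both. Each group was hybridised on a slide of its own, so slide and group cannot be told apart. The 2 weeks and control groups were scanned on the same day and the 1 week, 4 weeks and 8 weeks groups on another, so for 1, 4 and 8 weeks against control the day cannot be told apart from the group either. The cartilage markers COL2A1, ACAN and CNMD were well above background on all 20 arrays and SOX9 on 8. Muscle transcripts were also present, and unevenly: the mean level of 11 skeletal muscle genes was -4.75 to -2.95 on the 16 operated arrays, against 1.44, 4.12, -1.28 and -2.25 on control replicates 1 to 4.

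IL18 and IL1RN were called lower after derangement at some of the times, and neither IL1A nor IL1B passed the test at any time. IL18 was at 47.4% of the control level at 1 week (95% interval 33.4 to 67.3) and did not pass the test at 2, 4 or 8 weeks. At 4 weeks it was at 61.2% (43.1 to 86.9), and 4 of its 7 probes were called lower there. IL1RN was at 45.4% of control at 4 weeks (28.9 to 71.2) and 47.6% at 8 weeks (30.3 to 74.6). At 1 and 2 weeks it was at 58.2% (37.1 to 91.2) and 49.9% (31.8 to 78.2), and was not called. IL1B was at 32.5% of control at 1 week, but its arrays spread so widely that the interval ran from 12.2 to 86.1 and the difference was not called. A call means an adjusted p under 0.05 in limma, with Benjamini-Hochberg adjustment over all 26905 tested probes. Intervals are not adjusted for the number of probes, so they can exclude equality where the adjusted p does not pass.

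**Figure D1:**
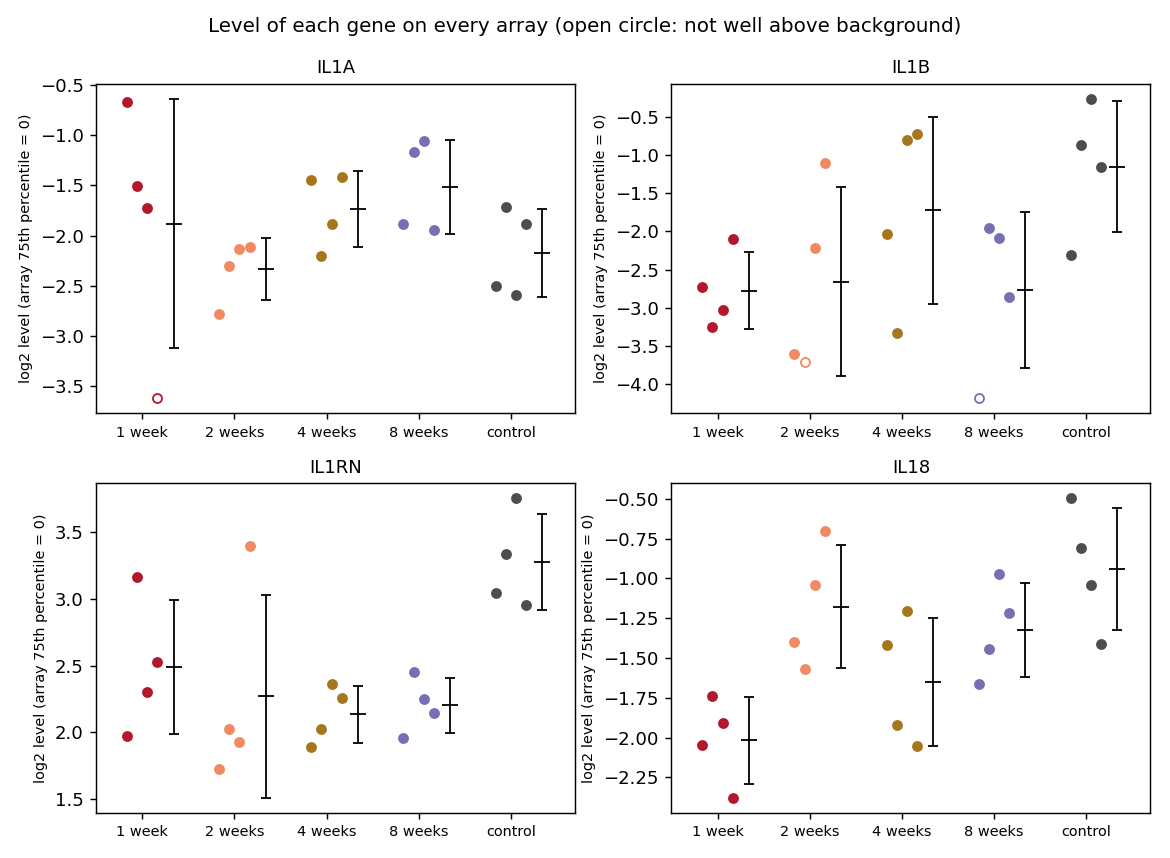
Level of IL1A, IL1B, IL1RN and IL18 on each of the 20 arrays, with points for arrays and bars for the group mean and SD (n = 4); the vertical axis is log2 level relative to the array's 75th percentile and open circles mark arrays where the probe was not well above background. For IL18, the 1 week arrays (-2.38 to -1.74) all sit below the control arrays (-1.41 to -0.50), and for IL1RN the 4 weeks and 8 weeks arrays all sit below the control arrays.

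IL1A, the agonist that is active without cleavage, was read by 1 of its 4 probes. That probe, which starts at base 696 of the transcript, was well above background on 19 of 20 arrays. A second probe starts at base 726, shares 30 of its 60 bases with the first, and was well above background on 0 of 20 arrays, as were the probes starting at bases 782 and 1809. The 2 overlapping probes are shown 5′ to 3′ because they share sequence and disagree on detection. Capitals mark the 30 shared bases, and the joined 90 bases hold a reading frame without a stop.
IL1A, base 696: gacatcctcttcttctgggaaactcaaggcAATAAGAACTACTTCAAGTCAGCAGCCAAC
IL1A, base 726: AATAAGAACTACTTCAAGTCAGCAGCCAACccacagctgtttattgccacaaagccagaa

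The values of IL1A below therefore rest on the probe at base 696 alone. On the 4 arrays of each group its level was -0.68, -1.5, -1.72 and -3.62 at 1 week, -2.78, -2.30, -2.14 and -2.11 at 2 weeks, -1.45, -2.21, -1.88 and -1.41 at 4 weeks, -1.89, -1.17, -1.06 and -1.94 at 8 weeks, and -2.51, -1.72, -2.59 and -1.89 in control. Every operated group overlapped the control arrays, and the widest spread was at 1 week, where the array at -3.62 was the 1 not well above background. Against control the log2 difference was 0.30 ± 0.44 at 1 week, -0.16 ± 0.44 at 2 weeks, 0.44 ± 0.44 at 4 weeks and 0.66 ± 0.44 at 8 weeks (± SE, limma adjusted p = 0.694, 0.991, 0.591 and 0.358). Group means ran in the order 8 weeks, 4 weeks, 1 week, control and 2 weeks from high to low, with no neighbours in that order called as different. The 1 week value depends on single arrays. It was 0.88 without replicate 4, the dimmest array, and -0.11 without replicate 1, where the IL1A level was highest.

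IL1B, the agonist released after cleavage of its precursor, was read by 3 tested probes starting at bases 1211, 1265 and 1305. The probe at base 1265 had the highest mean. Its level was -2.73, -3.25, -3.03 and -2.09 on the 1 week arrays, -3.60, -3.70, -2.22 and -1.10 on the 2 weeks arrays and -2.03, -3.33, -0.81 and -0.73 on the 4 weeks arrays. It was -4.18, -1.95, -2.09 and -2.86 on the 8 weeks arrays, and -2.31, -0.87, -0.26 and -1.16 on the control arrays. Spread within a group was wide, and every operated group overlapped control, at 1 and 8 weeks through control replicate 1 alone. The log2 difference from control was -1.62 at 1 week, -1.5 at 2 weeks, -0.57 at 4 weeks and -1.62 at 8 weeks, each with an SE of 0.67 (adjusted p = 0.115, 0.606, 0.651 and 0.124). From high to low the group means ran control, 4 weeks, 2 weeks, 8 weeks and 1 week, with no neighbours called.

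The other IL1B probes gave the same picture at most times. At 1 week the 3 probes differed from control by -1.62 to -0.84 and at 8 weeks by -1.62 to -0.44, with 0 of 3 called by limma in each. At an unadjusted p under 0.05 there were 2 of 3 at each time, against 29.4% of all tested probes at 1 week and 27.5% at 8 weeks. At 4 weeks the probe at base 1211 was on the other side of control, at 0.24 ± 0.65, and the other probes were at -0.57 and -0.39. These transcripts were dim: the probe at base 1305 was well above background on 2 of 4 arrays at 1, 2 and 8 weeks, 4 of 4 at 4 weeks and 4 of 4 in control.

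IL1RN, the receptor antagonist, was read well above background on all 20 arrays by probes starting at bases 1528 and 1548, which share 40 of 60 bases and so do not measure it independently. The level of the first was 1.98, 3.16, 2.30 and 2.53 on the 1 week arrays, 1.73, 2.03, 1.93 and 3.39 on the 2 weeks arrays and 1.89, 2.03, 2.36 and 2.26 on the 4 weeks arrays. It was 1.96, 2.45, 2.25 and 2.14 on the 8 weeks arrays, and 3.04, 3.34, 3.75 and 2.96 on the control arrays. All arrays of 4 and 8 weeks lay below all control arrays, while 1 array at 1 week and 1 at 2 weeks reached into the control range. For the probe at base 1548 all 1 week arrays lay below control too, and the difference was not called (-0.85 ± 0.29, limma adjusted p = 0.0563). No overlap with control, in the downward direction, was seen for 5.57% of tested probes at 1 week, 5.86% at 4 weeks and 8.76% at 8 weeks.

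IL1RN fell by 1.14 on the log2 scale at 4 weeks (SE 0.31, limma adjusted p = 0.029) and by 1.07 at 8 weeks (SE 0.31, adjusted p = 0.0293). The second probe fell by 1.18 and 1.1 at these times (adjusted p = 0.0159 and 0.0175). Calls of either direction covered 8.56% of tested probes at 4 weeks and 12.8% at 8 weeks, and calls of a lower level 2.19% and 4.3%. At 1 and 2 weeks the probe at base 1528 differed from control by -0.78 and -1.0 and was not called (adjusted p = 0.1 and 0.274). Both tested probes had an unadjusted limma p under 0.05 at each of these times, against 29.4% and 7.75% of all tested probes. At 2 weeks, the group scanned on the same day as control, replicate 4 alone stood in the control range. Of the 20 fits that each leave out 1 array, the fit without it was the only 1 to call IL1RN at 2 weeks (-1.38, adjusted p = 0.017). Over all 32 alternatives for that comparison the limma adjusted p ran up to 0.610. From high to low the means ran control, 1 week, 2 weeks, 8 weeks and 4 weeks, and no 2 operated groups differed by a call.

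Calls of IL1RN were close to the threshold. They ended without replicate 1, 2 or 4 of the 4 weeks group (adjusted p up to 0.0806), without replicate 1, 3 or 4 of the 8 weeks group (up to 0.0863), and at both times without control replicate 2 or 3 (up to 0.0916). With control replicates 1 and 2, those of the highest muscle level, both left out, the differences were -1.22 and -1.15 (adjusted p = 0.138 and 0.145). With fewer control arrays the SE was 0.40, against 0.31 in the full fit. Among control arrays IL1RN was highest on replicate 3, where the muscle level was -1.28. The part of muscle transcripts in the IL1RN difference was not tested. With normexp background correction the differences at 4 and 8 weeks were -0.97 and -0.92 (adjusted p = 0.0599 and 0.074). The IL1RN probe at base 177 was well above background on 2 control arrays and on 0 of the 16 operated arrays, and so was not tested.

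IL18 gave the most extensive reading, with 7 tested probes of 5 distinct sequences laid in steps of 20 bases along the transcript. They are shown 5′ to 3′ because their overlap limits how far they count as separate measurements. Capitals mark bases shared with the probe at base 444, which represents the gene, and the joined 140 bases hold 1 reading frame without a stop. The sequences starting at bases 384 and 424 were each printed as 2 separately named probes.
IL18, base 384: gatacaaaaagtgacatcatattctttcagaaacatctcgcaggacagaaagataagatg
IL18, base 404: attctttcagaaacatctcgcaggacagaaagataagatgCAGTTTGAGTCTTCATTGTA
IL18, base 424: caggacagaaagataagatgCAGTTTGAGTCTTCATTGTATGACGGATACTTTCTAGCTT
IL18, base 444: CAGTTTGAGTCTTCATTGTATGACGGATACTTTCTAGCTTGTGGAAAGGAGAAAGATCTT
IL18, base 464: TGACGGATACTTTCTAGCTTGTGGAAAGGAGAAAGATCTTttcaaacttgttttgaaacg

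The pairs of identical sequence show the technical spread within an array. The absolute log2 difference between the 2 copies had a median of 0.17 over 20 arrays at base 384 and 0.25 at base 424, with the largest values 0.60 on 1 week replicate 4 and 0.77 on 8 weeks replicate 4. At base 444 the level of IL18 was -2.05, -1.74, -1.91 and -2.38 on the 1 week arrays, -1.40, -1.57, -1.04 and -0.70 on the 2 weeks arrays and -1.42, -1.92, -1.20 and -2.05 on the 4 weeks arrays. It was -1.66, -1.44, -0.97 and -1.22 on the 8 weeks arrays, and -0.50, -0.81, -1.04 and -1.41 on the control arrays. The 1 week arrays lay below all control, all 2 weeks and all 8 weeks arrays, while the other times overlapped control. No overlap in that direction was seen for 5.57% of tested probes against control, 6.55% between 2 weeks and 1 week and 3.09% between 8 weeks and 1 week.

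At 1 week IL18 fell by 1.08 on the log2 scale (SE 0.24, limma adjusted p = 0.00596), and each of the 7 probes was called lower, with differences of -1.40 to -1.0 (adjusted p = 0.00122 to 0.0122). Calls covered 13.9% of tested probes in that comparison, and calls of a lower level 4.21%. At 4 weeks 4 of the 7 probes were called lower, with differences of -1.07 to -0.71 over all 7, and the probe at base 444 was not called (-0.71 ± 0.24, adjusted p = 0.0773). At 2 weeks the 7 differences from control ran from -0.52 to -0.14 and at 8 weeks from -0.74 to -0.22, with 0 of 7 called by limma in both (0 and 2 of 7 at an unadjusted p under 0.05). Calls covered 0.453% of tested probes at 2 weeks.

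**Figure D2:**
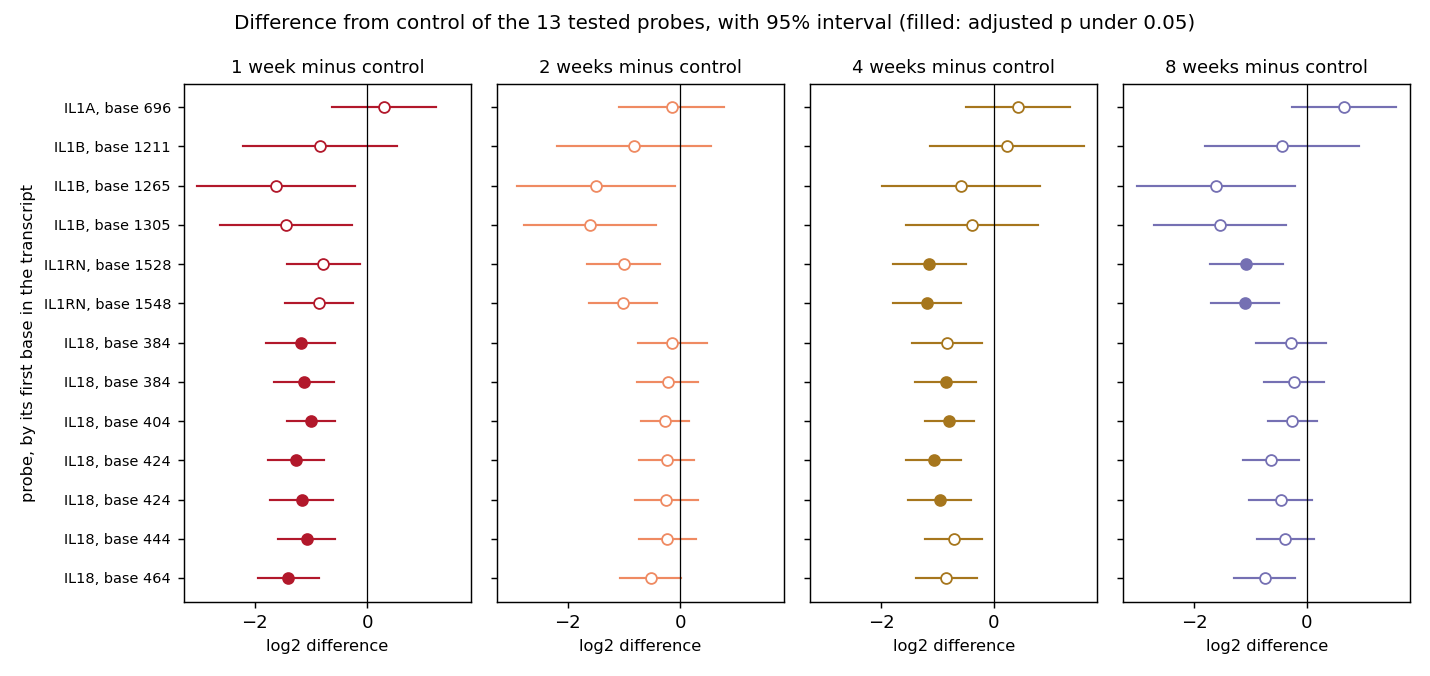
Log2 difference from control of the 13 tested probes of IL1A, IL1B, IL1RN and IL18 at 1, 2, 4 and 8 weeks, with the 95% interval of the limma fit as a line and filled points for adjusted p under 0.05; probes are named by the first base they cover, and the repeated bases of IL18 are probes of identical sequence. All 7 IL18 probes are filled at 1 week and both IL1RN probes at 4 and 8 weeks, and no IL1A or IL1B point is filled.

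The IL18 level differed between times as well. It was higher at 2 weeks than at 1 week by 0.84 ± 0.24 (adjusted p = 0.0315), and all 7 probes were called in that direction, by 0.73 to 1.04, where calls covered 11.4% of tested probes and calls of a higher level 3.92%. These groups were scanned on different days, and the call at base 444 ended without replicate 1 or 4 of the 1 week group or replicate 3 or 4 of the 2 weeks group (adjusted p up to 0.109). Within 1 scan day, the difference from 1 week was 0.37 ± 0.24 at 4 weeks and 0.69 ± 0.24 at 8 weeks, neither called (adjusted p = 0.564 and 0.211; calls covered 1.07% and 0.0149% of tested probes). From high to low the means ran control, 2 weeks, 8 weeks, 4 weeks and 1 week, and no neighbours in that order differed by a call. Between the later times limma called 0 of the 4 genes (calls covered 4.3% of tested probes for 4 weeks against 2 weeks, 8.62% for 8 weeks against 2 weeks and 0.558% for 8 weeks against 4 weeks), with 5 IL18 probes and 1 IL1B probe at an unadjusted p under 0.05 for the first of these (19% of all tested probes) and 2 IL18 probes for the last (13%). In the F test over the 5 groups IL18 passed (adjusted p = 0.0265) and IL1RN, IL1B and IL1A did not (0.0601, 0.213 and 0.525), against 15.8% of tested probes. The IL1RN probe at base 1548 did pass (adjusted p = 0.0343).

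The call of IL18 at 1 week was kept without any single array (20 fits, differences of -1.23 to -0.93). Without 1 week replicate 4, where 6 of the 7 probes were not well above background, it was -0.96 (adjusted p = 0.0231). It was lost with normexp background correction (-0.68, adjusted p = 0.218), and with control replicates 1 and 2 left out together (-0.79, adjusted p = 0.129). Among control arrays the probe at base 444 was highest on replicates 1 and 2, which also had the highest muscle level, whereas the probe at base 464 was highest on replicate 4 (-0.53). The part of muscle transcripts in the difference was not tested. In whole tissue, fewer cells that make a transcript and less of it per cell cannot be told apart.

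Antagonist and agonists were also compared within each array, as IL1RN minus a ligand relative to the control mean. Set against IL1A, the group means after derangement lay below control, at -1.08 ± 1.45 at 1 week, -0.85 ± 0.63 at 2 weeks, -1.58 ± 0.45 at 4 weeks and -1.73 ± 0.33 at 8 weeks, against 0 ± 0.67 in control (± SD, n = 4). Without the 1 week array where IL1A was not well above background the 1 week mean was -1.67 ± 1.03 (n = 3). All arrays at 4 weeks (-2.11 to -1.20) and at 8 weeks (-2.14 to -1.37) lay below the control arrays (-0.60 to 0.90). Set against IL1B, no such pattern was seen: the means were 0.84 ± 0.82, 0.50 ± 0.73, -0.57 ± 1.08 and 0.55 ± 0.83 at 1, 2, 4 and 8 weeks, and every group overlapped control. Without the single array at 2 weeks and at 8 weeks where IL1B was not well above background, the means at those times were 0.23 ± 0.60 and 0.16 ± 0.37 (n = 3). Set against IL18, they were 0.30 ± 0.46, -0.77 ± 0.51, -0.43 ± 0.44 and -0.69 ± 0.29. The 1 week group, in which IL18 was lowest, stood on the other side of control from the later ones. These values combine members of the family and were not tested, so they are a description of the arrays.

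**Figure D3:**
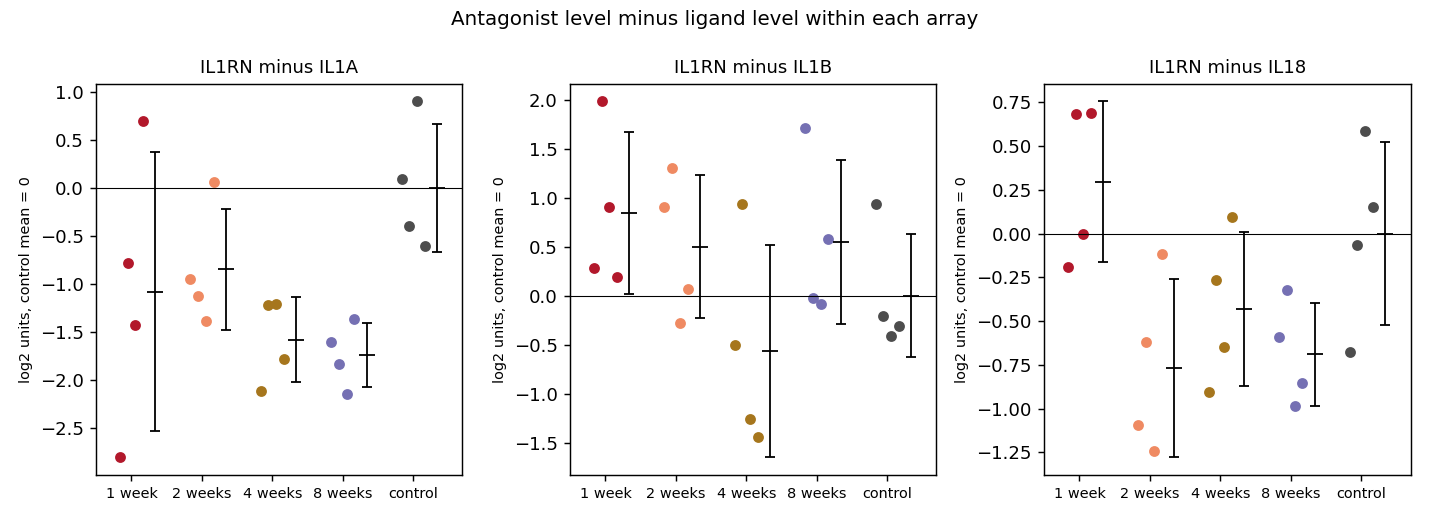
IL1RN level minus the level of IL1A, IL1B or IL18 on each of the 20 arrays, in log2 units with the control mean at 0; points are arrays and bars the group mean and SD (n = 4). Against IL1A the 4 weeks and 8 weeks arrays all lie below the control arrays, and against IL1B each operated group overlaps control.

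Of the genes that carry the pathway, few could be read by name. The array names none of 9 receptors and decoys and none of 7 other ligands of the family, and the annotation used here covers 885 genes, so these genes are not analysed here. In the list of inflammasome and processing genes 2 of 11 were tested and 0 were called against control at any time by limma (at an unadjusted p under 0.05, CAPN1 at 8 weeks). CASP1, the protease that cuts the precursors of IL1B and IL18, differed from control by -0.66, -0.71, 0.06 and -0.80 at 1, 2, 4 and 8 weeks (SE 0.56). CAPN1, a calpain, the protease family known to process the IL1A precursor, was at 0.40 ± 0.14 at 8 weeks (adjusted p = 0.0596). Of the relay from receptor to nucleus only JUN, a subunit of the AP-1 transcription factor, was tested among 21 genes, and it was not called (-0.81 to 0.30).

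Genes that interleukin 1 is known to induce in cartilage and synovium were read for 11 of the 17 on the list. At 1 week 1 was called higher and 3 lower, with a median difference of -0.79 over the 11, against 0.02 over all tested probes. The share of all tested probes called was 13.9% at 1 week, 0.453% at 2 weeks, 8.56% at 4 weeks and 12.8% at 8 weeks. At 4 weeks 1 was called higher and 2 lower (median -0.66), and at 8 weeks 1 and 1 (median -0.66). At 2 weeks limma called 0 (median -0.30), with 3 of the 11 at an unadjusted p under 0.05, against 7.75% of all tested probes. The mean level of the 11 genes ran from -0.41 to -0.12 on the 1 week arrays, -0.10 to 0.32 at 2 weeks, -0.51 to 0.08 at 4 weeks and -0.28 to 0.45 at 8 weeks, against 0.41 to 0.79 on the control arrays. Only 1 operated array, at 8 weeks, reached the control range. The list was chosen with earlier results of these data known.

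The called genes of that list did not move one way. SOD2, the mitochondrial superoxide dismutase, fell by 0.79 at 1 week (SE 0.14, adjusted p = 0.0007) and by 0.72 at 8 weeks (SE 0.14, adjusted p = 0.00215), and PLAU, urokinase, fell by 1.06 at 1 week and 1.02 at 4 weeks (SE 0.23, adjusted p = 0.00557 and 0.0113). MMP3, the matrix metalloproteinase stromelysin 1, fell by 1.01 at 4 weeks (SE 0.26, adjusted p = 0.0218). CXCL8, a chemoattractant of neutrophils, rose by 1.32 at 1 week, 1.18 at 4 weeks and 1.17 at 8 weeks (SE 0.28, adjusted p = 0.0039, 0.0136 and 0.0109), but 1 of its 3 other tested probes had the opposite sign at each of these times. CCL2, a chemoattractant of monocytes named because it completes the count and chosen after its values were seen, fell by 1.40 at 1 week (SE 0.41, adjusted p = 0.0305).

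**Figure D4:**
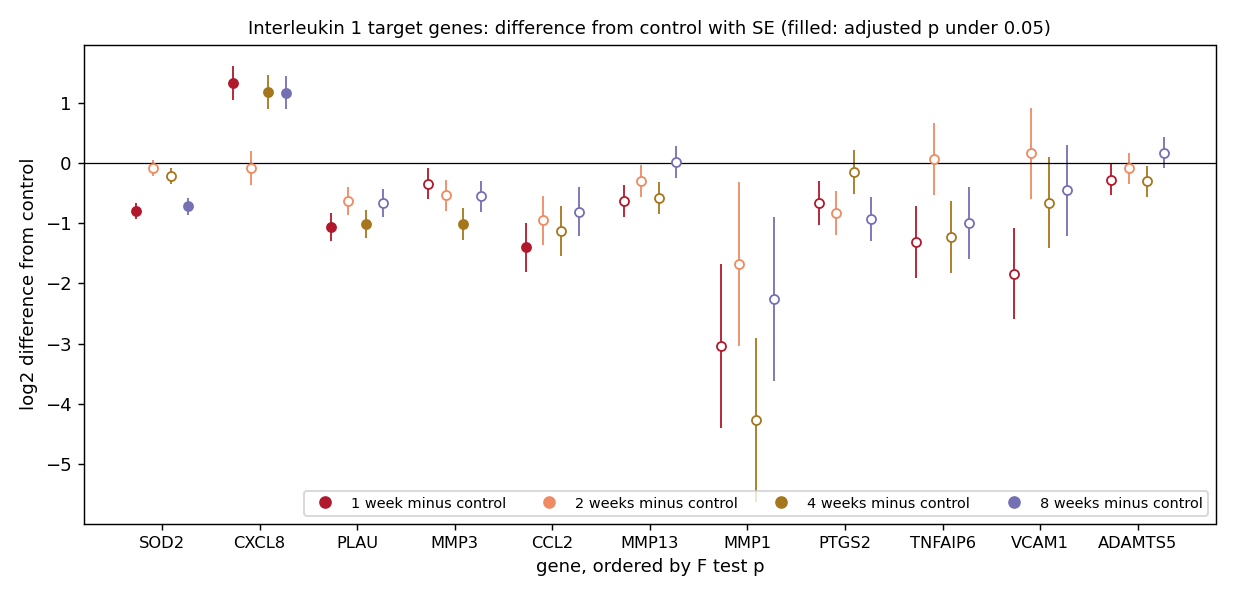
Log2 difference from control of the 11 tested genes that interleukin 1 is known to induce, with the SE of the limma fit and filled points for adjusted p under 0.05, at 1, 2, 4 and 8 weeks. SOD2, PLAU, MMP3 and CCL2 have filled points below 0, and CXCL8 has filled points above 0 at 1, 4 and 8 weeks.

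Partners of IL18 in the type 1 response were read for 3 of 6 genes. TNF, a proinflammatory cytokine, rose by 0.97 at 1 week and 1.30 at 4 weeks (SE 0.28, adjusted p = 0.0278 and 0.00651), with 2 of its 4 other probes on the opposite side. IL15, a growth factor of natural killer and memory T cells, fell by 0.78 at 1 week and 0.75 at 4 weeks (SE 0.21, adjusted p = 0.018 and 0.0309), as did IL18 at 1 week, and its 6 other probes had the same sign. IFNG, the interferon that IL18 induces, differed by -0.52 to -0.08 and was not called.

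Markers of cells that are known sources of these cytokines moved in part with them. The monocyte and macrophage genes CD14, TLR4 and MSR1, 3 of 8 on the list, were all called lower at 4 weeks, with differences of -1.29, -0.82 and -2.05 (adjusted p = 0.0133, 0.0478 and 0.0354), where IL1RN was called lower. At 8 weeks, where IL1RN was called lower too, limma called 0 of the 3 (1 at an unadjusted p under 0.05, against 27.5% of tested probes), and at 1 week it called TLR4 alone. Their mean level was -1.23 to -0.45 on the 1 week arrays, -1.16 to 0.05 at 2 weeks, -2.17 to -0.33 at 4 weeks and -1.11 to -0.30 at 8 weeks, against -0.19 to 0.32 in control. CD14 and TLR4 were well above background on all 20 arrays and MSR1 on 16. Their part in the differences of IL1RN and IL18 was not tested. Of the 3 tested neutrophil markers 1 was called: the receptor CXCR2 rose by 1.55, 1.34 and 1.13 at 1, 4 and 8 weeks (adjusted p = 2.14e-05, 0.000191 and 0.000675), while S100A9 (0.40, 0.84 and 0.53) and CAMP (-3.13, 1.54 and -1.27) were not called at these times. Of the other marker lists, the epithelial genes UPK1B and CASP14 were called higher than control at 1, 4 and 8 weeks, and SOX9 of the cartilage list at 1 week. No control array had any of these genes well above background, so the sizes of these differences are uncertain. UPK1B and CASP14 cleared background on all 4 arrays at each of 1, 4 and 8 weeks. SOX9 did so on 4 arrays at 1 week, but on 2 at 4 weeks and 2 at 8 weeks. It thus entered the test through the 1 week group alone, the group in which it was called. Skeletal muscle genes were called lower for 10, 5, 9 and 11 of 11 at 1, 2, 4 and 8 weeks. Calls covered 13.9%, 0.453%, 8.56% and 12.8% of all tested probes at these times. Of the 11 muscle genes, TNNC2, MYL11 and TNNI2 were well above background on all 20 arrays and CKM on 12. MYH1, ATP2A1 and ACTA1 were on 8, TTN on 7, MYH8 on 6, and NEB and CASQ2 on 3. NEB and CASQ2 therefore entered the test through a single group, and differences that reach down to background are uncertain in size. Against control limma called 0 genes of the endothelial (3 tested), synovial lining (2) and erythroid (3) lists. At an unadjusted p under 0.05 there were 2 synovial genes at 1 week and 1 endothelial gene at 1, 2 and 8 weeks. The share of all tested probes at that threshold was 29.4%, 7.75% and 27.5% at 1, 2 and 8 weeks. No lymphocyte gene was tested.

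The named genes with the most similar course over the 20 arrays differed between the members. Likeness was the mean absolute difference between genes after each was centred and divided by its SD, taken over 648 genes, for which the median lay between 1.06 and 1.12 SD units. IL1B lay closest to LOC100008703, BPI and CAMP (0.417, 0.442 and 0.444), of which BPI and CAMP encode antimicrobial proteins of neutrophil granules. IL1RN lay closest to RLA-DMA and RLA-DMB (0.468 and 0.524), which encode the molecule that loads peptides onto class II histocompatibility proteins, and then to ATP2A1, the calcium pump of fast muscle (0.559). IL18 lay closest to ATP6V1D, a proton pump subunit, TPM1, tropomyosin 1, and C1R, a complement protease (0.472 to 0.499). IL1A lay less close to its nearest genes TGFB1, PROS1 and AK3 (0.587 to 0.610).

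These neighbours were chosen for their course, so their differences are a description. RLA-DMB differed from control by -0.71, -0.68, -0.91 and -0.65 at 1, 2, 4 and 8 weeks, and was called at 4 weeks (adjusted p = 0.0363). Of the genes nearest to IL18, C1R was at -0.92 at 1 week and -0.90 at 4 weeks against control, both called (adjusted p = 0.0026 and 0.0053), and was not called at 2 weeks or 8 weeks. TPM1 was at -1.29 and -0.99 at the same times, also called (adjusted p = 0.00419 and 0.0328). ATP6V1D was at -0.73 at 1 week, its only call among the 4 times (adjusted p = 0.0159). ATP2A1, a muscle gene, was called lower at all 4 times, with differences of -6.37 to -4.55.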

How the data were processed

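RNA of 20 rabbit condylar cartilage samples was measured on single-colour Agilent arrays. The deposited intensities are the processed signal that Agilent Feature Extraction 10.7.1.1 gives per spot, with spatial and multiplicative detrending switched on and background correction switched off per the file headers. Control and outlier spots were left out, and log2 signals were scaled by subtracting the 75th percentile per array. Probes entered the test when any group had 3 or more of its 4 arrays well above background. The limma 3.58.1 fit (R 4.3.3) used all 20 arrays, a mean for every group and 10 two-sided contrasts, with Benjamini-Hochberg adjustment over the tested probes. The steps were tested on simulated data. Separate samples are assumed to be separate rabbits, and the number of arrays limits the precision. Replicate numbers were not treated as pairs. Deviations of the 40 same-numbered pairs of arrays correlated between -0.33 and 0.39, with 8 above 0.1. Those of the 120 other pairs between groups ran from -0.37 to 0.36, with 26 above 0.1.

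The 4 genes, the gene lists and the cell type markers were chosen with earlier results of these data known. Named besides the members are up to 4 genes of each list with the lowest F test p and the 3 genes nearest to each member. Gene names came from the array's own columns and RefSeq accessions, which named 2617 probes. Probe sequences are those of the scanner output, and positions count from the transcript start the array design gives. Alternatives changed background correction, centring, filter, probe choice, weights, samples and blocks. The authors' deposited value table holds the same linear intensities without centring, but each of its 4 columns for 8 weeks equals another array of that group, so replicate numbers within 8 weeks are uncertain in 1 of the 2 sources. Its column medians ran from 28.26 to 90.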

Additional observations from a re-analysis of the deposited data

Results flagged for a closer look

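On replicate 4 of the 1 week group, the dimmest array, 3 member probes stood apart from the other arrays of their group. The IL1B probe at base 1305 was at -3.41 there, against -4.11 to -4.02 on the others. An IL18 probe at base 384 was at -4.57, against -3.29 to -3.06, and the IL18 probe at base 404 at -3.01, against -2.54 to -2.47. In all 65 groups of 4 values were checked, and chance sets about 1 in 20 apart. None of these 3 probes was well above background on that array, and the IL18 call at 1 week is as given in the report without it.

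IL18 was higher at 2 weeks than at 1 week by 0.84 in the limma contrast (adjusted p = 0.0315), with all 2 weeks arrays above all 1 week arrays. The 2 groups lay on different slides and were scanned on different days, which cannot be told apart from time.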

How the results depend on the processing

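Called members numbered 1 at 1, 4 and 8 weeks, 0 at 2 weeks, 1 for 2 weeks against 1 week and 1 in the F test. The share of all probes called under each alternative is not given here, so a changed count need not be particular to the members. With normexp background correction they numbered 0 at 1, 4 and 8 weeks and for 2 weeks against 1 week. With control replicates 1 and 2 left out they numbered 0 at 1, 4 and 8 weeks and in the F test. For 2 weeks against 1 week they were 0 without a filter on dim probes, with only the groups compared and with array weights. Quantile normalization gave 0 at 8 weeks. Median centring gave 2 at 1 week and in the F test, and the mean of a gene's tested probes gave 2 at 4 weeks and in the F test. Array weights gave 2 at 1, 4 and 8 weeks and in the F test, 1 at 2 weeks and 1 for 8 weeks against 2 weeks. With these weights IL1A was called higher at 8 weeks (0.86, limma adjusted p = 0.04999), its only call against control among 30 alternatives. Leaving out 1 array gave 1 to 2 at 1 week, 0 to 1 at 2 weeks, 0 to 2 at 4 weeks, 0 to 1 at 8 weeks and for 2 weeks against 1 week, and 0 to 2 in the F test. An equal count need not mean the same gene. For 2 weeks against 1 week without 1 week replicate 4 it stayed at 1, though IL18 was not called (0.72, limma adjusted p = 0.0933).

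IL1RN minus IL1B, operated minus control, was 0.33, and it reversed to -0.21 with normexp and to -0.0059 with the mean of tested probes (0.19 to 0.64 without 1 array). IL1RN minus IL1A was -1.31 (-1.51 to -1.01 without 1 array). Signs also reversed for IL1A at 1 week without replicate 1 of that group (-0.11; without 1 array -0.11 to 0.88), at 2 weeks with normexp (0.0395) and at 4 weeks with normexp (-0.0156), and for IL18 at 2 weeks without control replicates 1 and 2 (0.0494). The cause was not tested. Over 31 alternatives IL18 at 1 week was called in 29, and IL1RN in 24 at 4 weeks and 23 at 8 weeks, with no sign reversed. These fits are not independent checks: 20 leave out 1 array, mostly from a group not compared, and another takes the same intensities from the authors' table. Of these 20, IL1RN was called in 15 at 4 weeks and 15 at 8 weeks, and every loss followed from an array of a compared group. With the replicate number as a block, no member's call changed (IL18 at 1 week -1.08, adjusted p = 0.00963). Arrays where a ligand was not well above background (1 for IL1A, 2 for IL1B) were left out in an alternative chosen after seeing the data, which gave 0.16 for IL1RN minus IL1B and -1.44 for IL1RN minus IL1A.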
